A study of Mus musculus with 2 samples.

Results

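The genes described here are 10 inflammatory and regulatory cytokine genes, *Il1a*, *Il1b*, *Il1rn*, *Il6*, *Il10*, *Il18*, *Tnf*, *Ifng*, *Tgfb1* and *Inhba*, out of 17232 genes in the expression table. They were taken as the rows of these names. Each was followed as unique molecular identifiers (UMIs, the tags that count captured mRNA molecules) across every immune class of 2 single-cell RNA-seq libraries. The study asked how monoamine oxidase A, the enzyme encoded by *Maoa*, bears on immune cells in tumors. One library came from *Maoa* WT mice and the other from *Maoa* KO mice, whose hypomorphic *Maoa* mutant allele (129S-Maoa tm1Shih/J) had been moved onto C57BL/6J by backcrossing and is not a full deletion. Per the study's methods, mice were females of 8 to 12 weeks unless otherwise stated. Both groups bore subcutaneous B16-OVA tumors, a mouse melanoma line made to express ovalbumin, and cells were taken on day 14. In each group 10 tumors were combined before viable CD45.2+ immune cells were sorted and loaded on the 10x Chromium 3′ platform, so each genotype was 1 library with no replicate. No test between genotypes was therefore possible, and every interval below is a 95% interval for counting error only.

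The IL-1 branch of this group holds the agonists IL-1α and IL-1β and their natural antagonist, IL-1Ra, encoded by *Il1rn*, which occupies the same receptor without signalling. IL-1β and IL-18 are made as precursors and released after caspase-1 cleavage in inflammasomes, while TNF and IL-6 are secreted by activated myeloid cells. IFN-γ is the product of activated T cells and NK cells that activates macrophages. IL-10, TGF-β1 and activin A (the dimer of the *Inhba* product) are the regulatory members, the last 2 of them belonging to the TGF-β superfamily.

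The libraries held 2392 cells with 28801253 UMIs (WT) and 2630 cells with 23702018 UMIs (KO), and 13 barcode sequences occurred in both. Cells were placed in 6 classes through 15 clusters built without the 10 genes: tumor-associated macrophages and monocytes (TAM/Mono, 968 WT and 832 KO cells), T cells (1041 and 1116), NK cells (187 and 268), dendritic cells (DCs, 141 and 320), plasmacytoid DCs (pDCs, 48 and 70) and B cells (7 and 24). *Maoa* itself had 7 UMIs in 6 cells of the WT library and 15 UMIs in 14 cells of the KO library, so its RNA did not bear out the labels. *Xist*, which is transcribed in female cells, had 2 UMIs in WT and 0 in KO, and Y-linked genes were detected in 66.1% and 58.6% of cells, which goes against female mice. WT and KO below therefore mean the libraries labelled so. WT cells were deeper, above all T cells (median 9979 against 4873.5 UMIs), so shares of cells are also given after thinning the cells of a class to 1 depth. Shallower cells were left out of the thinned shares, 73 WT and 99 KO TAM/Mono cells, 0 and 180 T cells, 0 and 43 NK cells and 6 and 37 DCs. Neutrophil genes also differed: over the 5 largest classes the summed level of 10 neutrophil markers ran from 112.5 to 566.9 UMIs per 1000000 UMIs of the same cells (CPM) in WT and from 5.94 to 194.2 CPM in KO. Of the 10 markers, 10 were detected in WT and 9 in KO TAM/Mono cells, and 10 and 8 in T cells. In NK cells 7 and 4 were detected, and in DCs 8 and 7. *Ly6g* and *Ngp* were at 0 in NK cells and DCs of both libraries.

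The 10 genes lie on different chromosomes except for the IL-1 genes, which are all on chromosome 2. In GRCm38 (GENCODE M21), the protein-coding genes *Il1a* (2:129299610-129309972, minus strand) and *Il1b* (2:129364570-129371139, minus strand) are neighbors, and *Il1rn* (2:24336853-24351494, plus strand) is far from them. *Inhba* lies on chromosome 13 (13:16011851-16031621, plus strand). RefSeq windows (GRCm38.p6) from 250 bases before to 50 bases after a transcription start were used for 9 of the 10 members, with 3 starts for *Il1rn*, and a window of *Il10* was not used here. The windows of the 4 genes on which the library differences below turn are printed 5′ to 3′ on the coding strand, with motif matches in capitals. The 4 motifs searched on both strands were a κB-type site (GGG, then any 3 bases, then TTCC, in 5.56% of 32841 windows of this length), AP-1 (TGANTCA, 7.81%), C/EBP (TTGCNNAA, 10.8%) and the TATA box (TATAAA, 13.6%).
Il1a, chr2:129309923-129310222, minus strand: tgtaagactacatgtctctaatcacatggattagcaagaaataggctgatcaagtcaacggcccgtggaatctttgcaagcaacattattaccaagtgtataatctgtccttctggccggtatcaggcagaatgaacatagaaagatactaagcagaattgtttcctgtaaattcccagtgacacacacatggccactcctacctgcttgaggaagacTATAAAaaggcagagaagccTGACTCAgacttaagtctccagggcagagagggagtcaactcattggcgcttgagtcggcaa
Il1b, chr2:129371090-129371389, minus strand: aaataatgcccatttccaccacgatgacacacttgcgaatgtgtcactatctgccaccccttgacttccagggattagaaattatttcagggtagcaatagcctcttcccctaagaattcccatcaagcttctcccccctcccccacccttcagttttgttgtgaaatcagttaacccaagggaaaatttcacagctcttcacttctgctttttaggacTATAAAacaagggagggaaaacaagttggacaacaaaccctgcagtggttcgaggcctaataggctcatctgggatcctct
Il1rn (the most downstream of 3 starts), chr2:24345121-24345420, plus strand: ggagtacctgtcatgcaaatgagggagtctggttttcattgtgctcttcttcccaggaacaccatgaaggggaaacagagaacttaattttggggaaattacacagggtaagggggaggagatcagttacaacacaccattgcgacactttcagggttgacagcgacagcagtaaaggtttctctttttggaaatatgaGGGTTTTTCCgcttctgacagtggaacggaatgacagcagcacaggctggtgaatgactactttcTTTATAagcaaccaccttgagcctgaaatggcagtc
Inhba, chr13:16011601-16011900, plus strand: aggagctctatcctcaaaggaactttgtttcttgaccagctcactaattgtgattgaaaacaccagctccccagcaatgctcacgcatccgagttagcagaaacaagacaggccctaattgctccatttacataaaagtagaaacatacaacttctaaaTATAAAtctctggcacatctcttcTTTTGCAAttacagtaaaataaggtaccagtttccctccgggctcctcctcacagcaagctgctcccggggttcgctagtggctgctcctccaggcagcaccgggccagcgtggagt
The capitals mark a TATA box match and an AP-1 match in *Il1a*, a TATA box match alone in *Il1b*, a κB-type match and a TATA box match in *Il1rn*, and TATA box and C/EBP matches in *Inhba*. The matches did not overlap one another. A match is a string of letters only, and nothing was measured here about binding.

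Myeloid cells held most of the UMIs of 8 of the 10 genes. Over both libraries, TAM/Mono cells held 99.1% of *Il1a* UMIs (212 of 214), 96.9% of *Inhba* UMIs, 94.4% of *Il1rn* UMIs, 87.1% of *Il18* UMIs and 81.7% of *Il1b* UMIs. Their shares were lower for *Tnf* (70.4%), *Il6* (69.6% of 56 UMIs, interval 55.9 to 81.2%) and *Tgfb1* (61.3%). The remaining 2 genes lay mainly in T cells, with 89.6% of *Ifng* UMIs and 54.8% of *Il10* UMIs. DCs came second for *Il1b*, with 15.2% of its UMIs. In the charts of UMI shares by class, the class with the largest share was the same in both libraries for every gene but *Il10*, whose largest share was in T cells in WT (140 of 206 UMIs) and in TAM/Mono in KO (43 of 119 UMIs, against 38 in T cells and 36 in DCs).

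**Figure D1:**
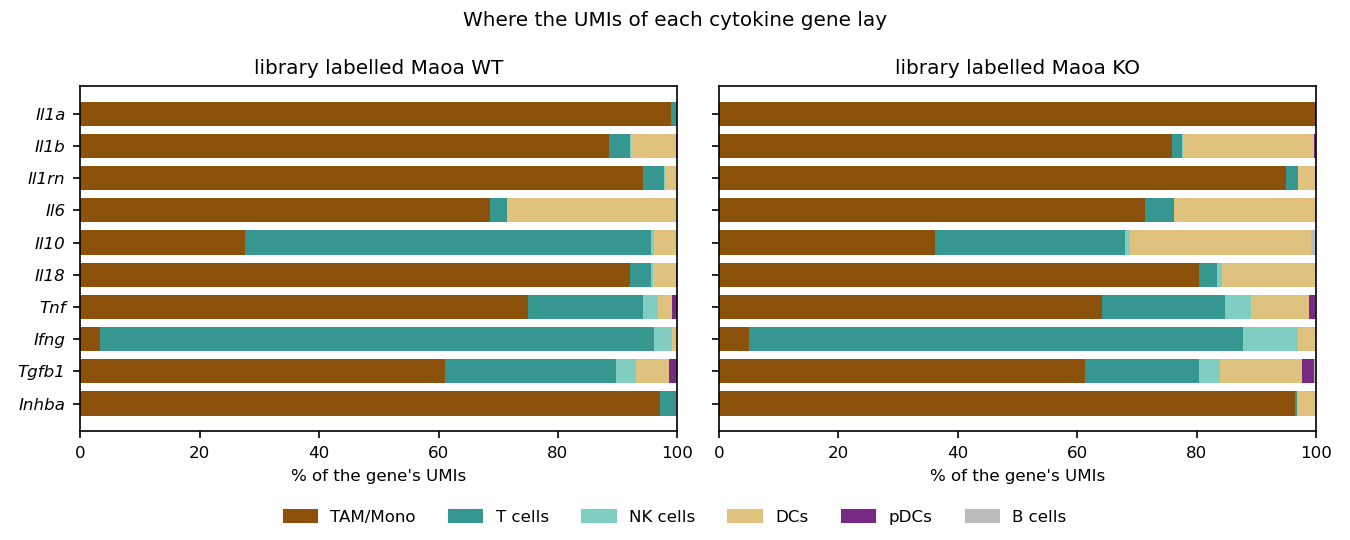
The share of each gene's UMIs (x axis, %) found in each immune class, with 1 bar per gene and 1 panel per library. TAM/Mono cells hold most of every bar except *Ifng*, which lay in T cells, and *Il10*, which was spread over T cells, TAM/Mono cells and DCs.

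Levels below are summed UMIs of a gene on this CPM scale. *Tgfb1*, the broadly expressed latent cytokine, was the only member detected at 167 CPM or more in every class of both libraries. Its order in WT was TAM/Mono (411 CPM), pDCs (280), NK cells (245), DCs (207), B cells (188) and T cells (174), in which only TAM/Mono stood clear of its neighbor by the counting intervals. *Il1b* was at 379 CPM in WT TAM/Mono cells and 183 CPM in WT DCs, and at 13.5 CPM in T cells and 11.3 CPM in NK cells, lymphocytes that should lack it. With cells thinned to 3000 UMIs, 37.0% of WT TAM/Mono cells and 3.75% of WT T cells had an *Il1b* UMI (57.1% and 11.9% before thinning, at median depths of 10365 and 9979 UMIs). *Ifng* ran the other way, at 192 CPM in WT T cells, 72.4 CPM in WT NK cells and 7.62 CPM in WT TAM/Mono cells. At 3000 UMIs, 23.4% of WT T cells and 1.45% of WT TAM/Mono cells had an *Ifng* UMI. Background was taken gene by gene, as the level of that gene in a class that should lack it, here lymphocytes for *Il1b* and TAM/Mono cells for *Ifng*, and values of the same gene near or below it are not read as expression. *Il18* followed *Il1b*, with 53.9 CPM in WT TAM/Mono cells, 12.7 CPM in WT DCs and 1.82 CPM in WT T cells. *Inhba* and *Il1a* had 0 UMIs in NK cells of either library, which allows up to 2.62 CPM in WT and 2.44 CPM in KO.

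**Figure D2:**
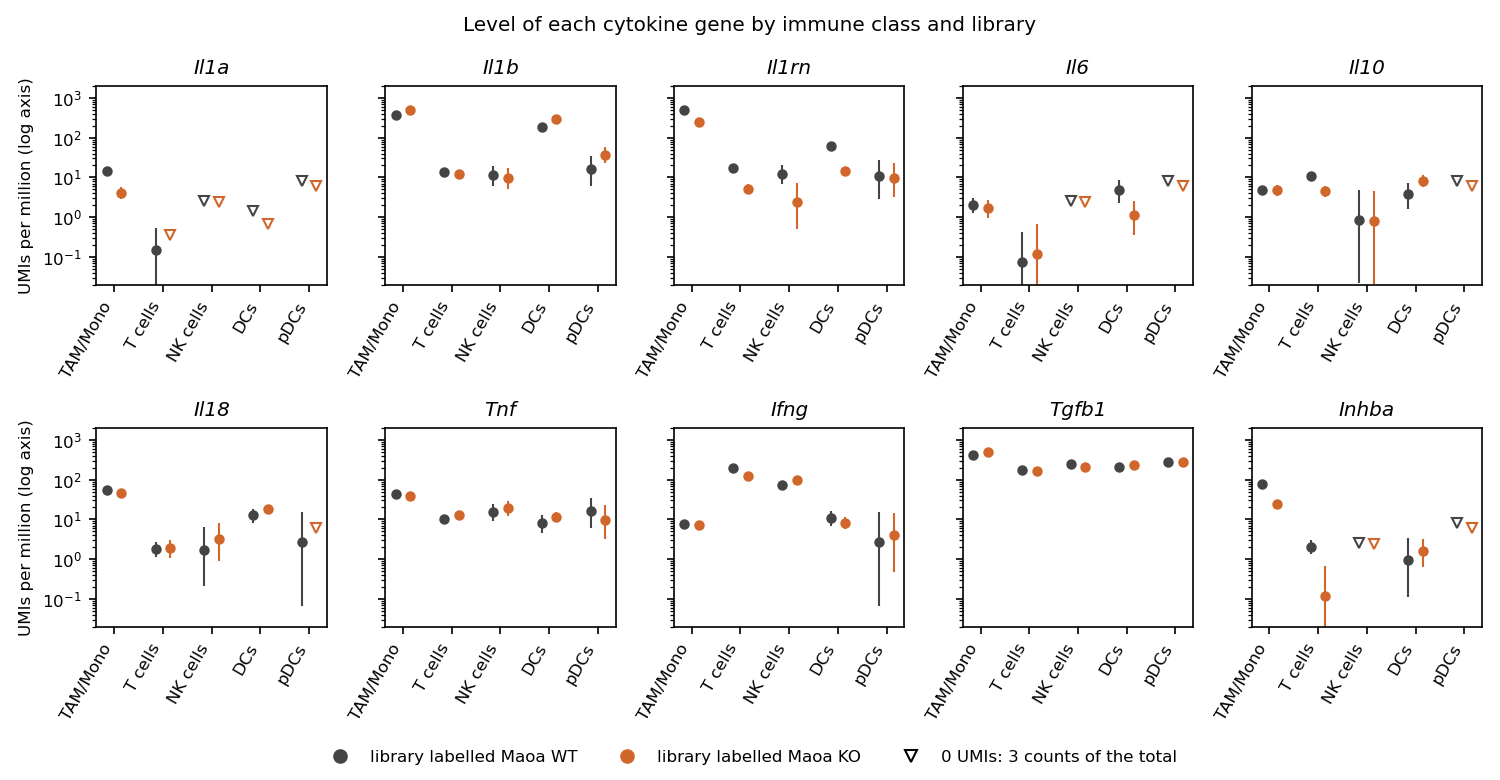
CPM (log axis) of each of the 10 genes in 5 immune classes of the WT library (grey) and the KO library (orange), with exact Poisson intervals for counting error. Open triangles mark classes with 0 UMIs and stand at 3 counts of the class total. *Il1a*, *Inhba* and *Il1rn* sit lower in KO TAM/Mono cells, whereas *Il1b* and *Tgfb1* sit slightly higher.

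In TAM/Mono cells 3 members were at least 2-fold lower in KO than in WT, *Il1a*, *Il1rn* and *Inhba*, and none was at least 2-fold higher. These are 3 of the 9 members with at least 100 UMIs there. Of all 8330 genes with at least 100 UMIs in the class, 1.68% were at least 2-fold lower and 0.696% at least 2-fold higher. The median log2 ratio (KO over WT) was −0.19 for the 9 members and 0.06 for all 8330 genes.

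*Il1rn*, the IL-1 receptor antagonist gene, fell from 510 CPM in WT (6093 UMIs) to 245 CPM in KO (2198 UMIs), a log2 ratio of −1.06 (−1.13 to −0.98). After thinning to 5700 UMIs, 56.3% of WT and 36.4% of KO TAM/Mono cells had an *Il1rn* UMI. *Inhba*, the activin βA gene, was at 79.5 CPM in WT (950 UMIs) and 24.1 CPM in KO (216 UMIs), a log2 ratio of −1.72 (−1.94 to −1.51). *Il1a*, the membrane-retained IL-1 agonist gene, had 175 UMIs in 63 WT cells and 37 UMIs in 19 KO cells, or 14.7 against 4.13 CPM and a log2 ratio of −1.81 (−2.38 to −1.31). All 3 intervals of levels were apart between the libraries. The 10 neutrophil markers also summed to 566.9 CPM in WT and 194.2 CPM in KO TAM/Mono cells, and without the cells that held 10 or more UMIs of *S100a8* and *S100a9* (63 WT and 5 KO cells over all classes) the log2 ratios were −1.05 for *Il1rn*, −1.79 for *Inhba* and −1.88 for *Il1a*. The antagonist and 1 agonist of the same receptor were therefore lower in KO, while the other agonist was not. *Il1b* was at 379 CPM in WT (4532 UMIs) and 497 CPM in KO (4449 UMIs), a log2 ratio of 0.39 (0.33 to 0.45), and the thinned shares of cells were 46.4% and 46.9%.

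The other members of the class lay closer together. *Tgfb1* was at 411 CPM in WT and 508 CPM in KO (log2 ratio 0.31, 0.25 to 0.36), and 92.6% and 92.7% of cells had a UMI. With cells thinned to 3000 UMIs, the shares were 66.8% (63.8 to 69.8%) in WT and 70.5% (67.25 to 73.6%) in KO. *Il18* was at 53.9 and 47.1 CPM, a log2 ratio of −0.19 with an interval of −0.38 to −0.02 that nearly reached 0. *Tnf* was at 44.0 and 38.5 CPM (−0.19, −0.39 to 0.01). *Il10*, with 57 and 43 UMIs, was at 4.77 and 4.80 CPM, and a log2 difference inside its interval of −0.60 to 0.61 was not detectable at this depth. *Il6* had 24 UMIs in 8 WT cells and 15 UMIs in 12 KO cells, too few to compare. *Ifng* had 91 and 64 UMIs there, at levels of 7.62 and 7.15 CPM, but 29 of the 64 KO UMIs came from 1 doublet-like cell, and without the top cell of each library the levels were 6.55 and 3.91 CPM.

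**Figure D3:**
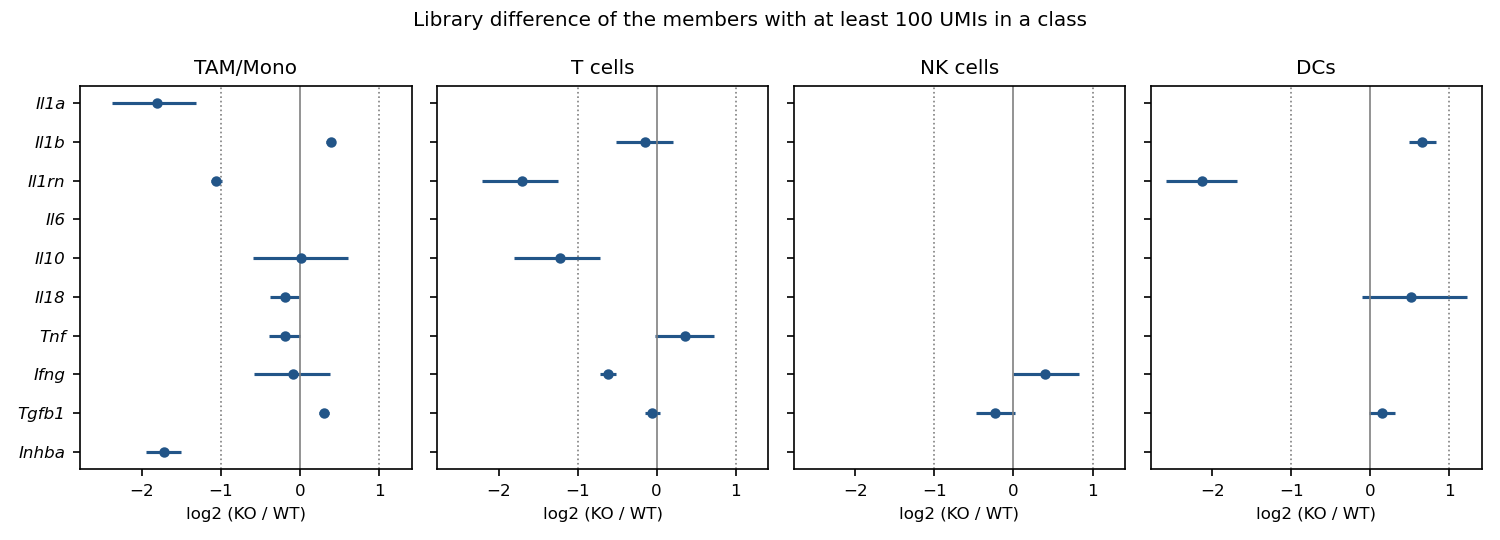
Log2 ratio of KO over WT (x axis) with its exact interval for counting error, for members with at least 100 UMIs in TAM/Mono cells, T cells, NK cells and DCs. Dotted lines mark 2-fold, and the points beyond the left dotted line are *Il1a*, *Il1rn* and *Inhba* in TAM/Mono cells, *Il1rn* and *Il10* in T cells and *Il1rn* in DCs.

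The TAM/Mono class was made of 4 clusters whose sizes differed between the libraries, and the members were spread unequally over them. Cluster 4 (327 WT and 119 KO cells), whose leading genes included *Cxcl3*, *Inhba* and *Thbs1*, held 85.9% of WT and 85.3% of KO *Inhba* UMIs. The same cluster held 60.2% of WT and 44.9% of KO *Il1rn* UMIs and 74.0% of WT and 35.1% of KO *Il1a* UMIs, of which cluster 0 held 40.5% in KO (15 of 37). Of those 15 UMIs, 11 came from 1 cell. Cluster 0 (334 and 322 cells), led by *Dmkn*, *Vcan* and *Il1b*, held 43.3% of WT and 54.8% of KO *Il1b* UMIs. Cluster 5 (155 and 258 cells) carried all 15 monocyte markers and had the highest *Tgfb1* level of the 4, 652 CPM in WT and 752 CPM in KO. Cluster 10 (152 and 133 cells) carried all 17 TAM markers and was led by *Ccl8* and complement genes. Most cells of the class thus sat in clusters 0 and 4 in WT and in clusters 0 and 5 in KO.

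Within cluster 4 the difference in *Inhba* was smaller than in the class, 265 CPM in WT and 206 CPM in KO, a log2 ratio of −0.36 (−0.60 to −0.14). *Il1rn* in cluster 4 was at 1226 and 1119 CPM (−0.13, −0.23 to −0.03). With 1 common mix of the 4 clusters given to both libraries, the class ratios were −0.47 for *Inhba*, −0.27 for *Il1rn* and −1.22 for *Il1a*, so 1 member and not 3 remained at least 2-fold lower. The ratios of all 3 were thus closer to 0 at a common mix than in the class as sampled. *Il1rn* was lower in KO in each of the other 3 clusters, at 297 and 232 CPM in cluster 0, 57.3 and 34.7 CPM in cluster 5 and 268 and 114 CPM in cluster 10. *Il1a* in cluster 4 had 131 UMIs in 32 WT cells and 13 UMIs in 7 KO cells, a log2 ratio of −1.51 (−2.51 to −0.73). A single WT cell held 54 of the 131 UMIs, and without the top cell of each library the ratio was −1.25 (−2.505 to −0.323).

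*Il1b* and *Tnf* changed sign from cluster to cluster. *Il1b* was at 523 CPM in WT and 946 CPM in KO in cluster 0 (log2 ratio 0.86, 0.78 to 0.94). In cluster 4 it was at 508 CPM in WT and 376 CPM in KO (−0.43, −0.60 to −0.27), and in cluster 10 at 69.2 and 25.8 CPM (−1.42, −1.83 to −1.03). In cluster 5 it was at 371 and 418 CPM (0.17, 0.01 to 0.34). The class value of *Il1b* therefore averaged higher levels in clusters 0 and 5 and lower levels in clusters 4 and 10. *Tnf*, the cytokine of acute macrophage activation, was at 77.5 CPM in WT and 30.2 CPM in KO in cluster 4 (−1.34), where 18.7% of WT and 19.3% of KO cells had a *Tnf* UMI, but at 18.2 and 32.1 CPM in cluster 10 (0.81, 0.32 to 1.32). The shares in cluster 4 are unthinned, at median depths of 9016 (WT) and 7061 (KO) UMIs. With its cells thinned to 5300 UMIs, 40 WT cells had a *Tnf* UMI and 259 had none, against 15 and 87 in KO. *Tgfb1* was lower in KO in cluster 4 (350.0 and 258.5 CPM, −0.43) and higher in clusters 0 and 5, with log2 ratios of 0.32 and 0.21. Whether these differences between clusters exceed the spread between mice was not tested.

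**Figure D4:**
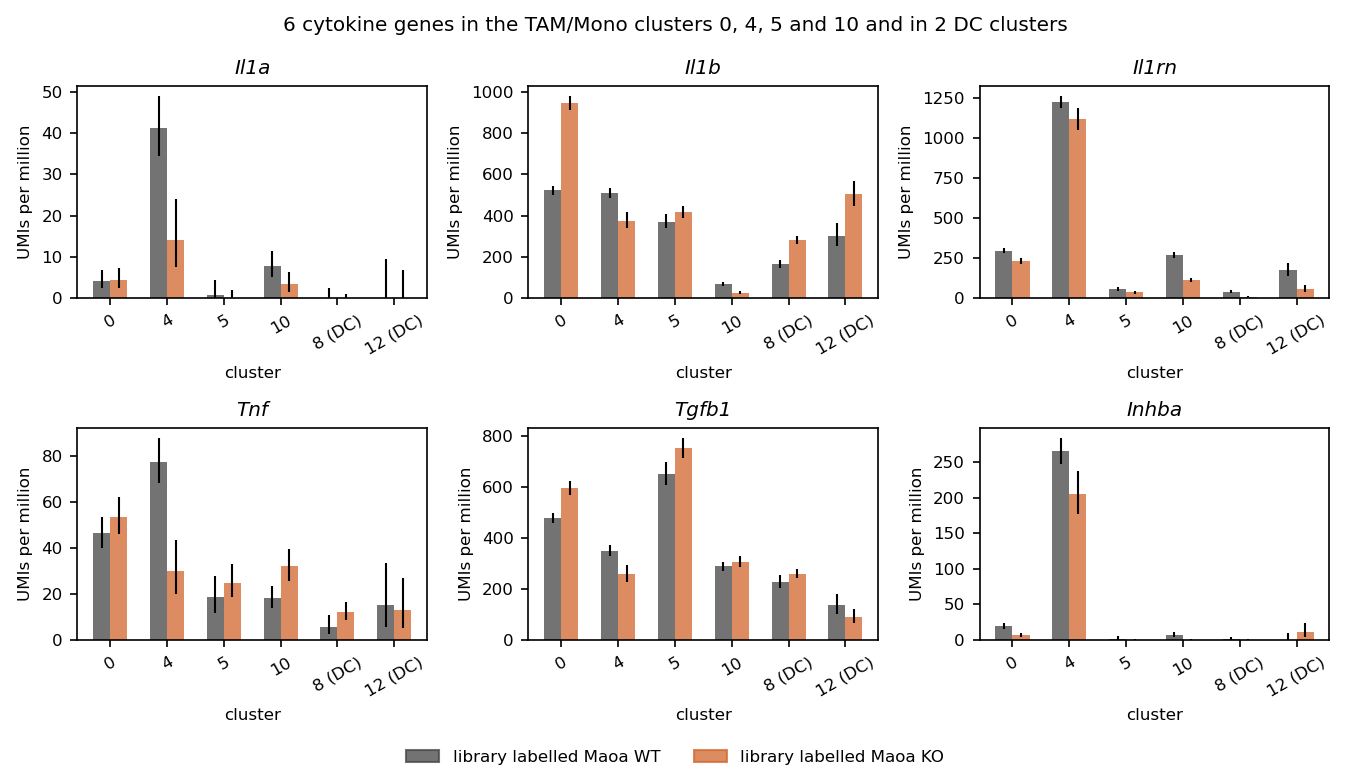
CPM of 6 members in the TAM/Mono clusters 0, 4, 5 and 10 and the DC clusters 8 and 12 (x axis) for WT (grey) and KO (orange), with exact Poisson intervals. *Inhba*, *Il1a* and *Il1rn* peak in cluster 4 in both libraries, whereas *Il1b* is higher in KO in cluster 0 and lower in KO in clusters 4 and 10.

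A few cells carried much of the signal of the secreted members. A single WT cell of cluster 4 with 8661 UMIs in all held the highest count of 3 members in either library, with 84 *Tnf* UMIs, 54 *Il1a* UMIs and 14 *Il6* UMIs, together with 71 *Il1b* and 59 *Il1rn* UMIs and no UMI of *Cd3d*, *Cd3e* or *Cd3g*. That cell alone supplied 54 of the 175 *Il1a* UMIs, 84 of the 526 *Tnf* UMIs and 14 of the 24 *Il6* UMIs of WT TAM/Mono cells. With the top cell of each library left out, the TAM/Mono log2 ratio of *Tnf* went from −0.19 to 0.01 and that of cluster 4 from −1.34 to −0.89 (−1.58 to −0.30). The ratio of *Il1a* was −1.78 in the class, where the KO cell left out, of cluster 0, held 11 of the 37 KO UMIs. By contrast *Tgfb1* was even, with at most 26 UMIs in any 1 TAM/Mono cell, and the top 10% of WT TAM/Mono cells held 28.4% of its UMIs against 63.9% for *Il1b* and 89.8% for *Inhba*.

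In cluster 4 of WT, thinned to 5300 UMIs a cell with shallower cells left out, *Inhba* went with *Il1rn* and *Il1a* in the same cells. Of 111 cells with an *Inhba* UMI, 92.8% (86.3 to 96.8%) also had an *Il1rn* UMI, against 74.5% (67.6 to 80.5%) of the 188 cells without. Of 20 cells with an *Il1a* UMI, 70.0% (45.7 to 88.1%) had *Inhba*, against 34.8% (29.2 to 40.7%) of the others. In KO the *Inhba* cells numbered 30 and 76.7% of them had *Il1rn*, against 73.6% of the 72 cells without, with overlapping intervals. All 3 KO cells with an *Il1a* UMI (29.2 to 100%) had *Inhba*, against 27.3% of the other 99. *Tnf* and *Inhba* showed no such pairing in WT, where 37.5% of 40 *Tnf* cells and 37.1% of the others had *Inhba*, and in KO the shares were 53.3% (26.6 to 78.7%) of 15 cells and 25.3% (16.6 to 35.8%) of the others. These shares describe the cells of 1 library each.

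In T cells 2 of the 6 members with at least 100 UMIs were at least 2-fold lower in KO, *Il10* and *Il1rn*, the latter at a level read as background (given after *Il10*), and none was at least 2-fold higher. Of 8544 genes in the class, 1.56% were at least 2-fold lower and 1.11% at least 2-fold higher. *Ifng*, the main effector cytokine of the class, was at 192 CPM in WT (2530 UMIs) and 125.5 CPM in KO (1061 UMIs), a log2 ratio of −0.61 (−0.72 to −0.51). After thinning to 3500 UMIs, 25.3% (22.7 to 28.0%) of WT and 20.6% (18.1 to 23.4%) of KO T cells had an *Ifng* UMI, against 48.3% and 28.3% before thinning, so the gap in shares was smaller at 1 depth.

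The T cell clusters that held *Ifng* were of unequal size in the libraries. Cluster 2, led by *Cxcr6*, *Lag3*, *Prf1* and *Cd8a*, and cluster 6, led by cell cycle genes, held most WT T cells (349 and 265 cells), whereas cluster 1, led by *Dapl1*, *Lef1* and *Tcf7*, and cluster 7, led by *Klra7*, held most KO T cells (405 and 250). *Ifng* in cluster 2 was at 258 CPM in WT and 285 CPM in KO (0.14, −0.01 to 0.29), and at 0.34 (0.18 to 0.49) without the top cell of each library, since 1 WT cell held 206 of its 1263 UMIs. In cluster 6 it was at 199.9 and 159 CPM (−0.33, −0.50 to −0.15), but 1 WT cell there held 286 UMIs, and without the top cell of each library the ratio was −0.05 (−0.24 to 0.14). In cluster 7 it was lower in KO, at 117.8 and 82.3 CPM (−0.52, −0.95 to −0.08), and in cluster 1 it was at 23.7 and 16.0 CPM from 20 and 34 UMIs. With 1 common mix of clusters the T cell ratio was −0.10. The clusters thus differed in direction, and the class ratio was closer to 0 at a common mix.

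*Il10*, the anti-inflammatory cytokine of regulatory T cells and macrophages, had 140 UMIs in 51 WT T cells and 38 UMIs in 28 KO T cells, or 10.6 against 4.49 CPM (log2 ratio −1.23, −1.80 to −0.71). A single WT cell of cluster 2 held 33 of the 140 UMIs, and without the top cell of each library the ratio was −0.96 (−1.56 to −0.41), no longer 2-fold. In cluster 9, whose leading genes included the regulatory T cell markers *Foxp3*, *Cd4*, *Tnfrsf4*, *Ctla4* and *Ikzf2*, *Il10* was at 35.3 CPM in WT (40 UMIs) and 13.6 CPM in KO (14 UMIs), a log2 ratio of −1.35 (−2.37 to −0.47). In cluster 2, which held the most *Il10* UMIs of WT T cells (54, and 15 in KO), the ratio was −0.43 (−1.40 to 0.38), and 0.62 (−0.56 to 1.69) without the top cell of each library. In cluster 6 (41 and 7 UMIs) it was −1.14, and −0.56 (−2.43 to 0.80) without the top cells. Over all T cells thinned to 3500 UMIs, 2.59% (1.72 to 3.75%) of WT and 1.496% (0.82 to 2.50%) of KO cells had an *Il10* UMI, with overlapping intervals. In NK cells *Il10* had 1 UMI in each library. *Tnf* in T cells was at 10.2 and 13.01 CPM (0.36, −0.02 to 0.73). *Tgfb1* was at 174 and 167 CPM (−0.06, −0.15 to 0.04).

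*Il1rn* in T cells had 225 UMIs in WT and 44 in KO, 17.1 and 5.203 CPM (log2 ratio −1.70, −2.21 to −1.24), and most positive WT cells had a single UMI (112 of 132). These levels are near those of NK cells, 12.2 CPM in WT (14 UMIs) and 2.44 CPM in KO (3 UMIs), so they are read as background. The 17 TAM markers together were at 886 CPM in WT and 796 CPM in KO T cells, and the 10 neutrophil markers at 228 and 70.0 CPM. Doublet-like cells, in which 3 or more UMIs of the CD3 chain genes met 5 or more UMIs of myeloid genes, made up 9.78% of WT and 3.61% of KO cells. Without them the T cell ratio was −1.66, and without the cells rich in *S100a8* and *S100a9* it was −1.65. *Il1b*, at 13.5 CPM in WT and 12.2 CPM in KO T cells, was near its NK cell level in both.

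In NK cells only *Ifng* and *Tgfb1* reached 100 UMIs and neither was 2-fold apart, where 1.16% of 2589 genes were at least 2-fold lower and 0.502% at least 2-fold higher. *Ifng* was at 72.4 CPM in WT (83 UMIs) and 95.9 CPM in KO (118 UMIs), a log2 ratio of 0.40 with an interval of −0.01 to 0.83. *Tgfb1* was at 245 and 209 CPM (−0.23, −0.48 to 0.02). The thinned shares of NK cells with an *Ifng* UMI were 19.8% (14.3 to 26.2%) and 22.7% (17.4 to 28.7%), so a difference was not detectable at this depth.

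In DCs 1 of 4 members with at least 100 UMIs was at least 2-fold lower in KO, *Il1rn*, and none was at least 2-fold higher. Among 5427 genes, 1.84% were at least 2-fold lower and 0.405% at least 2-fold higher. *Il1rn* was at 62.1 CPM in WT (132 UMIs) and 14.2 CPM in KO (63 UMIs), a log2 ratio of −2.13 (−2.59 to −1.69), above the NK cell level in each library. The 10 neutrophil markers summed to 112.5 and 11.02 CPM in the same cells, with an *S100a8* UMI in 50.35% of WT and 4.06% of KO DCs. No DC held more than 5 UMIs of *S100a8* or more than 5 of *S100a9*. Leaving out cells rich in these genes left the ratio at −2.13, and that filter could not show the part of neutrophil RNA in DCs, which was not tested. *Il1rn* was lower in both main DC clusters, at 38.7 and 9.42 CPM in cluster 8 and 174 and 57.5 CPM in cluster 12. Cluster 12 carried all 8 mature DC markers. Cluster 8, led by *Cd209a*, carried all 6 markers of Cd209a-positive DCs and all 7 of type 1 conventional DCs. The mix of DC subsets inside cluster 8 was not compared between the libraries. *Il1b* went the other way and was at 183 CPM in WT and 289 CPM in KO (0.66, 0.50 to 0.83). *Lyz2*, a monocyte and macrophage gene, was at 537.8 and 1128 CPM in the same cells, while the 17 TAM markers summed to 1082 and 904.4 CPM. The *Il1b* ratio was 0.85 with DCs chosen by each cell's marker UMIs, which limits *Csf1r*, *Fcgr3* and C1q genes. It was 0.515 without doublet-like cells and 0.48 with 20 principal components. The part of macrophage RNA in the *Il1b* value was not tested further. *Il1b* was higher in KO in cluster 8 (164 and 281 CPM) and in cluster 12 (302 and 503 CPM). The IL-1 agonist and its antagonist thus differed between the libraries in opposite directions in DCs. *Il18* was at 12.7 and 18.4 CPM (0.52, −0.10 to 1.22) and *Tgfb1* at 207 and 229 CPM (0.15, −0.02 to 0.31). Of the 36 *Il10* UMIs of KO DCs, 18 came from 1 cell.

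Among genes that act before or after these cytokines, 7 gene and class pairs were at least 2-fold apart, to be read beside the shares of all genes given above for each class (1.68% lower and 0.696% higher in TAM/Mono cells). In TAM/Mono cells, 13 of 18 receptor genes had at least 100 UMIs and 1 was lower in KO, *Il1r2*, the decoy IL-1 receptor, at 46.0 CPM in WT and 17.1 CPM in KO (−1.43, −1.70 to −1.17), or −0.86 with 1 common mix of clusters. Of 9 genes of cytokine release and activation with at least 100 UMIs, only *Thbs1* was 2-fold lower, at 553 and 252 CPM (−1.14), or −0.44 with 1 common mix, and it is a leading gene of cluster 4. *Thbs1* encodes thrombospondin-1, which can activate latent TGF-β. The 6 feedback genes and 7 other cytokine genes held none that was 2-fold apart. In T cells, of 13 receptor genes 2 were higher in KO, *Il6ra* (7.21 and 17.4 CPM, 1.27) and *Tgfbr1* (4.10 and 12.2 CPM, 1.56). With 1 common mix of clusters these were −0.041 and 0.93, so that neither was 2-fold apart. In the same cells *Thbs1* (19.7 and 5.79 CPM, −1.76) was near its NK cell level of 17.4 and 8.94 CPM and is read as background. In DCs 1 of 8 release genes, *Furin*, a protease that processes pro-TGF-β1, was higher in KO (26.8 and 59.6 CPM, 1.14), and the 1 soluble inhibitor gene with at least 100 UMIs, *Il18bp*, whose product binds and blocks IL-18, was lower (28.2 and 8.999 CPM, −1.64). Both stayed over 2-fold apart with 1 common mix (1.12 and −1.52). No pathway gene with at least 100 UMIs in NK cells was 2-fold apart.

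Across 25 points, each a cluster of at least 30 cells in 1 library, the genes whose log2(CPM + 10) most resembled that of each member were found among 10487 genes. *Il1a* was most like *Nos2*, the inducible nitric oxide synthase gene (Pearson r = 0.985), followed by *Fosl1* and *Pdpn*. *Inhba* was most like *Ptges* (r = 0.94), *Ptgs2* (r = 0.93) and *Fosl1* (r = 0.93), of which the first 2 encode enzymes of prostaglandin E2 synthesis. *Il1rn* was most like *Cstb*, *Cxcl2* and *P2ry2* (r = 0.96 to 0.95), *Il1b* like *Il13ra1*, *Mcemp1* and *Nupr1* (0.96 to 0.94) and *Il18* like *Clec4a2*, *Itgam* and *Cd300ld* (0.981 to 0.975). *Ifng* was most like *Utf1*, *Sh2d2a* and *Rcn1* (0.96 to 0.94). The fit was looser for *Tgfb1* (*Prdx5*, *1110008F13Rik* and *C1galt1c1*, 0.90 to 0.89), *Tnf* (*Smox*, *Tlr4* and *Phf23*, 0.85 to 0.83) and *Il10* (*Ttc39c*, *Fam132a* and *Sdcbp2*, 0.80 to 0.77). *Il6*, with 56 UMIs, spanned only 0.80 on this log2 scale and was most like *Papss2*, *Dnah2* and *Nrg1* (0.85 to 0.80). Points of 1 library share depth and background, points of 1 cluster share a cell type, and the values are a description.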

How the data were processed

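The authors sequenced 10x Chromium 3′ V2 libraries and, per the labels, processed them with Cell Ranger on mm10. They deposited natural log values, ln(1 + 10000 × UMIs / cell total), for 17232 genes and 5022 cells. UMIs were recovered here as expm1(value) over the smallest nonzero expm1(value) of the cell, and 100% of values were whole within 0.01. The members and gene lists were chosen with earlier results of these data known. Cells were clustered in R 4.3.3 with Seurat 5.3.0 (594 variable genes, members left out, depth regressed out, 13 principal components, resolution 0.8), and each cluster took the class whose marker list had the largest share detected. That subset lists count toward their class was decided after a first pass had left cluster 2 unnamed. No doublets were removed, and the myeloid genes that mark doublet-like cells were changed after a list with *Lyz2* and *Ccr2* had marked 21.0% of WT and 11.8% of KO cells. Log2 ratios had 0.5 UMIs added and exact conditional binomial intervals, levels exact Poisson intervals and shares Clopper-Pearson intervals (SciPy 1.17.1). Only the log2 ratio and its interval were tried on simulated data, drawn as Poisson counts, the model that the interval assumes. That trial does not show how intervals hold where 1 cell carries many UMIs of a gene. A limit for 0 UMIs was 3 counts. Thinning drew cells without replacement to the 10th percentile of their class, and shallower cells were left out. Genes named for their values were the members, pathway genes at least 2-fold apart with at least 100 UMIs, and the 3 genes most correlated with each member, beside marker genes and leading genes that identify clusters. Clustering, cell filters, scaling, class makeup and thresholds were varied.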

Additional observations from a re-analysis of the deposited data

Results flagged for a closer look

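For 3 members the library difference had opposite signs in different clusters, with counting intervals on opposite sides of 0. *Il1b* had a log2 ratio (KO over WT) of 0.86 in cluster 0 and −1.42 in cluster 10. *Tnf* had 0.81 in cluster 10 and −1.34 in cluster 4, where 1 WT cell held 84 of 246 UMIs. *Tgfb1* had 0.32 in cluster 0 and −0.60 in the mature DC cluster 12 (54 and 49 UMIs), where 1 WT cell held 15 UMIs and the ratio without the top cell of each library was −0.33 (−0.99 to 0.33), an interval that held 0. With 1 library per genotype, the difference between clusters was not tested against the spread between mice.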

How the results depend on the processing

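No paired analysis was possible because each genotype had 1 library and no result came from a test. The counts of members at least 2-fold apart (3 in TAM/Mono cells, 2 in T cells, 0 in NK cells and 1 in DCs) were recomputed under 20 alternatives and 21 log2 ratios under up to 17 of them, with no value where a member fell under 100 UMIs. Of 344 recomputed log2 values, 310 stayed inside the interval of the original value, and no member ratio whose interval excluded 0 changed sign. Of 600 recomputed shares of UMIs by class, 132 fell outside the original interval. *Inhba* in TAM/Mono cells (−1.72) left its interval under 7 of 17 alternatives, from −2.40 with the top 1% of cells left out to −0.47 with 1 common mix of clusters. The TAM/Mono count was 1 with 1 common mix of clusters and 2 with a minimum of 300 UMIs. The T cell count was 1 with classes taken from each cell's marker UMIs, 0 with a minimum of 300 UMIs, 0 without doublet-like cells by the list with *Lyz2* and *Ccr2*, 1 without the cell with the most UMIs of a member and 3 with a 1.5-fold limit. The doublet list, the top cell and the common mix for pathway genes were chosen after seeing the data. The DC count was 0 with classes from each cell's marker UMIs, 0 with a minimum of 300 UMIs, 2 with a minimum of 30 UMIs and 2 with a 1.5-fold limit. *Il1rn* and *Il10* had fewer than 300 UMIs in T cells, as did *Il1rn* in DCs. With classes from marker UMIs, *Il1rn* fell under 100 UMIs in DCs and had no ratio. Its 16 recomputed ratios in DCs ran from −2.208 to −1.838. *Il10* in T cells was at −0.61 with classes from marker UMIs. The cause of the other moves was not tested. The NK cell count was 0 throughout. Leaving out cells rich in *S100a8* and *S100a9* or barcodes found in both libraries changed no count. The first of these filters left the DC and NK cell ratios exactly as they were. Among pathway genes, *Il6ra* in T cells went from 1.27 to −0.041 with 1 common mix. *Ifng* in T cells ranged from −0.74 to −0.10. Ratios whose interval held 0 could take either sign, as *Tnf* in TAM/Mono cells (−0.34 to 0.28) and *Il1b* in T cells (−0.88 to 1.16) did. *Il6*, and most members in pDCs and B cells, were too shallow to compare.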
